A study of Mus musculus with 8 samples.

Results

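The genes described here are 10 mouse genes for inducible transcription factors, taken as a fixed list by name: the AP-1 genes *Fos*, *Fosb*, *Fosl1*, *Fosl2*, *Jun*, *Junb* and *Jund*, the related *Atf3*, and *Egr1* and *Myc*. All 10 had an entry among the 27179 in the expression table, and 9 of the 10 had an m6A peak in at least 1 library. They were measured by RNA-seq and MeRIP-seq in C2C12 myoblasts, a single immortal mouse muscle line, in 2 states. GM cells were dividing at 50% confluence in high glucose DMEM with 10% fetal bovine serum. The 3d DM cells were grown to about 90% confluence and were then kept for 3 days with 2% horse serum. Serum kind, serum amount, cell density and differentiation therefore all differ between the states and cannot be told apart. Both were grown on collagen, and the labels give no other treatment. Each state had 2 input libraries, which give RNA levels, and 2 libraries of RNA precipitated with an antibody to m6A (N6-methyladenosine, a methyl mark on adenosine in mRNA), with the replicates numbered 1 and 2 in the labels.

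AP-1 is a pair of basic leucine zipper proteins, usually a Fos family member with a Jun family member, that binds DNA and switches genes on or off depending on which members are paired. Many Fos, Jun, Egr and Myc genes are classical early response genes, with short-lived mRNAs and proteins. Growth factors in serum raise their transcription, for some of them through MAP kinases and serum response factor. In muscle cells Jun, Fos and Myc proteins are known to hinder the myogenic factors MyoD and myogenin. m6A is written on many short-lived mRNAs, most often near the stop codon, and its readers affect how long such mRNAs last.

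The labels were checked against muscle markers. *Myog*, *Myh3*, *Ckm* and *Acta1*, made by differentiating muscle, were higher in 3d DM, with *Myog* at 1007.8 and 220.8 in GM against 5392.0 and 11502.3 in 3d DM. *Mki67*, a gene of dividing cells, stood at 3586.0 and 3658.9 in GM against 446.3 and 760.4 in 3d DM. Of 8 state markers 7 had an adjusted p under 0.05 (*Myf5* and *Mki67* up in GM, and *Des*, *Myog*, *Myh3*, *Ckm* and *Acta1* up in 3d DM), and *Myod1* did not (log2 difference 0.10, adjusted p = 0.921 by limma). The 7 became 3 without 3d DM replicate 1 (*Myh3*, *Acta1* and *Mki67*) and 4 without 3d DM replicate 2 (these and *Myf5*). None of 9 markers of leukocytes, macrophages, endothelium, fat, epithelium and neurons (*Ptprc*, *Adgre1*, *Pecam1*, *Cdh5*, *Adipoq*, *Plin1*, *Epcam*, *Krt5* and *Rbfox3*) passed the filter on low values. Their summed signal was 1.1 to 4.6 per library, and *Adgre1*, *Adipoq*, *Plin1* and *Rbfox3* were listed at 0 in all 4 libraries. All RNA values are normalized signals from the deposited table, in which every library has nearly the same total (the lowest was 12534656.5). A single entry without a gene symbol held 24.4% to 41.3% of that total. In these values the median tested gene was higher in GM than in 3d DM by 0.22 on the log2 scale, and rescaling by median-of-ratios factors moved that median to -0.01. The changes of the 10 genes are therefore given with their rescaled values, and for the other genes named the text says where rescaling changed a call.

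*Myc* was called higher in GM than in 3d DM in the deposited values, and that call was lost after rescaling. *Fosl1* was called in the same direction on both scales, but it passed the filter on low values only through its GM libraries, where it was high, so that among the tested genes it had to differ. None of the other 7 tested genes was called in the deposited values. The test was limma on log2(value + 1) over 11406 genes, those that reached a value of 25.1, or 2 cpm, in 2 or more libraries. It called 17.0% of tested genes at an adjusted p under 0.05, of which 9.96% in the direction of GM and 7.01% of 3d DM. After rescaling it called 23.2%, and among the 10 genes these were *Fosl1*, higher in GM, and *Junb*, lower in GM. *Fos* passed the filter only through its 3d DM libraries, and *Fosb* did not pass. The standard errors in the deposited values depended on the level of a gene far more than on how its replicates spread, and lay between 0.42 and 0.65 for all 9 tested genes. In bulk RNA a lower share of cells with a transcript and less of it per cell cannot be told apart.

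**Figure D1:**
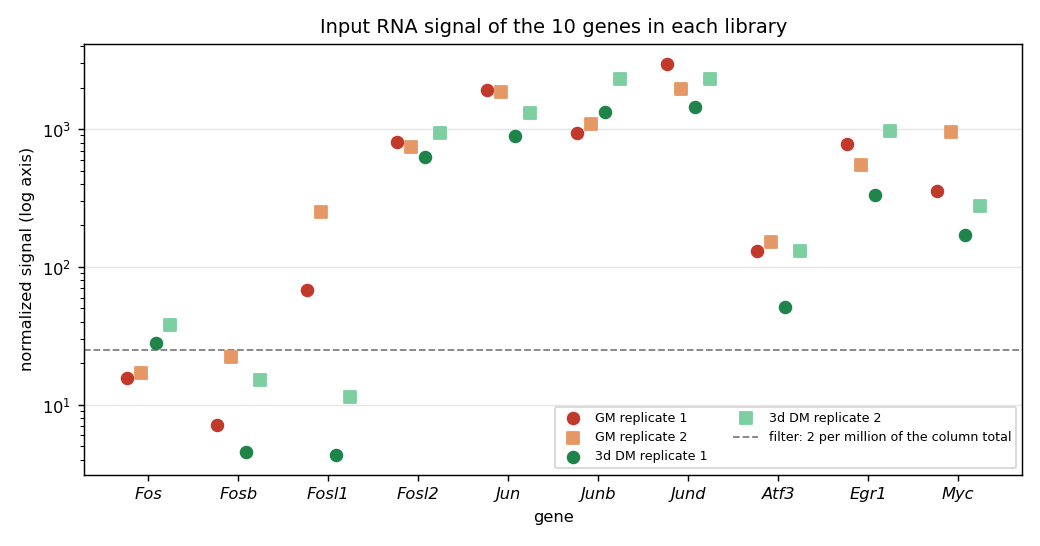
Normalized signal (log axis) of the 10 genes in each input library, with GM libraries in red and orange and 3d DM libraries in dark and light green. The dashed line marks 25.1, the filter on low values. *Fosl1* drops below it in both 3d DM libraries, and *Fosb* stays below it in all 4.

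*Fos* (chr12:85473890-85477273, plus strand, mm10), the founding member of the family, was near the lower limit of the table in both states. Its signal was 15.7 and 17.1 in the GM libraries and 28.2 and 37.7 in the 3d DM libraries. Both 3d DM values lay above both GM values, with a log2 difference (GM minus 3d DM) of -0.95 (SE 0.65, adjusted p = 0.384 by limma) and of -1.17 (SE 0.40, adjusted p = 0.088 by limma) after rescaling. *Fosb* (chr7:19302696-19310051, minus strand), a close paralog, had 7.1 and 22.1 in GM against 4.5 and 15.2 in 3d DM. The *Fosb* groups overlapped, and the gene was not tested.

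*Fosl1* (chr19:5447547-5455946, plus strand) encodes Fra-1, a Fos family protein without the strong activation domain of Fos that is known from cells under sustained growth factor signals. Its signal was 67.9 and 248.8 in GM against 4.3 and 11.4 in 3d DM, so the groups did not overlap. Their means were 20.2-fold apart, a ratio to 3d DM values that both lay under the filter of 25.1. The log2 difference was 4.02 (SE 0.62, adjusted p = 3.2e-09 by limma), the largest in size among the 9 tested genes, and 3.82 (SE 0.74, adjusted p = 0.018 by limma) after rescaling. With no filter on low values it was again 4.02 (adjusted p = 3.2e-08 by limma). Without 3d DM replicate 1 the log2 difference was 3.41 (adjusted p = 0.12 by limma), and without 3d DM replicate 2 it was 4.63 (adjusted p = 0.0507 by limma), the lone library being assumed to vary like the other state. The 2 GM libraries differed 3.67-fold in this gene. *Fosl2* (chr5:32135801-32157842, plus strand) encodes Fra-2, its close relative. *Fosl2* had 803.2 and 746.6 in GM against 625.3 and 943.0 in 3d DM, overlapping groups with a log2 difference of 0.01 (SE 0.43, adjusted p = 0.992 by limma). After rescaling the *Fosl2* difference was -0.22 (SE 0.16, adjusted p = 0.374 by limma), so its sign depends on the scaling.

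The Jun genes were the most abundant of the 10. *Jun* (chr4:95049034-95052222, minus strand), the main activating partner of Fos proteins, had 1937.5 and 1846.5 in GM against 894.2 and 1303.3 in 3d DM. Both GM values of *Jun* lay above both 3d DM values, but the log2 difference of 0.81 (SE 0.42, adjusted p = 0.204 by limma) did not pass the test, nor did 0.58 after rescaling (SE 0.16, adjusted p = 0.0534 by limma). *Junb* (chr8:84974484-84978718, minus strand) encodes a Jun protein that is a weaker activator on many AP-1 sites. Its values went the other way, with 936.6 and 1097.8 in GM against 1330.1 and 2310.0 in 3d DM. The *Junb* groups did not overlap. The log2 difference of -0.79 (SE 0.42, adjusted p = 0.221 by limma) did not pass in the deposited values, while -1.02 after rescaling did (SE 0.22, adjusted p = 0.0255 by limma). *Jund* (chr8:70698949-70700616, plus strand), the Jun gene known for steady expression in resting cells, had 2993.2 and 1941.8 in GM against 1454.1 and 2302.5 in 3d DM. These groups overlapped, with log2 differences of 0.40 (SE 0.42, adjusted p = 0.622 by limma) as deposited and 0.17 (adjusted p = 0.583 by limma) rescaled.

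*Atf3* (chr1:191170296-191218039, minus strand) encodes a stress-induced leucine zipper factor that pairs with Jun proteins and is often a repressor. Its signal was 130.2 and 150.5 in GM against 51.1 and 129.6 in 3d DM. The lower GM value stood just above the higher 3d DM value, and the log2 difference of 0.77 (SE 0.51, adjusted p = 0.358 by limma) did not pass. After rescaling the *Atf3* groups overlapped, with a difference of 0.55 (SE 0.36, adjusted p = 0.316 by limma). *Egr1* (chr18:34859823-34864984, plus strand), a zinc finger factor induced by serum, had 785.4 and 545.9 in GM against 334.6 and 976.6 in 3d DM. The 3d DM libraries of *Egr1* lay on either side of the GM libraries and differed 2.92-fold from each other. Its log2 difference was 0.20 (SE 0.44, adjusted p = 0.854 by limma), and -0.03 (adjusted p = 0.955 by limma) after rescaling.

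*Myc* (chr15:61985391-61990374, plus strand) encodes the growth factor-induced transcription factor that drives ribosome production and cell division together with its partner Max. Its signal was 357.0 and 955.3 in GM against 169.5 and 274.8 in 3d DM. The groups did not overlap and their means were 2.95-fold apart, with a log2 difference of 1.43 (SE 0.45, adjusted p = 0.0126 by limma). The call was lost after rescaling (1.20, SE 0.52, adjusted p = 0.148 by limma). It was also lost without GM replicate 2 (0.72, adjusted p = 0.822 by limma), without 3d DM replicate 1 (1.09, adjusted p = 0.457 by limma) and without 3d DM replicate 2 (1.78, adjusted p = 0.153 by limma). Both *Myc* and *Fosl1* were lower in GM replicate 1 than in GM replicate 2, and the muscle markers moved the other way there, with *Ckm* at 109.9 in replicate 1 and 17.1 in replicate 2 and *Myh3* at 1067.7 and 273.0. The part of this difference between the GM libraries in the 2 results was not tested.

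**Figure D2:**
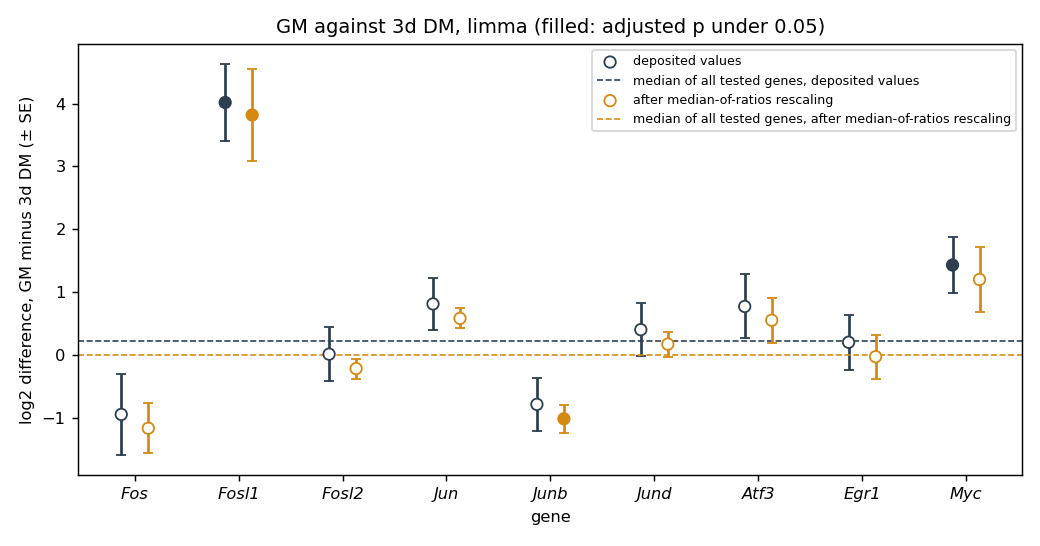
Log2 difference (GM minus 3d DM) with its standard error for the 9 tested genes, from 2 libraries in each state, in the deposited values (dark) and after median-of-ratios rescaling (orange). Filled points have an adjusted p under 0.05, and dashed lines are the medians of all tested genes, 0.22 and -0.01. *Fosl1* is filled on both scales, *Myc* only as deposited and *Junb* only after rescaling.

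Over all 10 genes, both GM values lay above both 3d DM values for *Fosl1*, *Jun*, *Atf3* and *Myc*, and both 3d DM values lay above for *Fos* and *Junb*. Over all tested genes the shares were 37.0% and 16.8%. *Fosl1* and *Fos* each passed the filter on low values through a single state, so among tested genes their groups had to lie apart. *Fosb*, whose groups overlapped, was not among the tested genes. After rescaling the first group was *Fosl1*, *Jun* and *Myc* and the second *Fos*, *Fosl2* and *Junb*, against 33.1% and 34.0% of tested genes.

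Per kilobase of exon, the order of levels differed between the states. In GM the mean signal per kilobase ran from *Jund* (1480) through *Jun* (593), *Junb* (442), *Myc* (241), *Egr1* (148), *Fosl2* (80.1), *Fosl1* (77.9), *Atf3* (65.2) and *Fos* (6.97) to *Fosb* (2.34). Neighbours in that order whose libraries overlapped were *Myc* with *Egr1*, *Fosl2* with *Fosl1*, and *Fosl1* with *Atf3*. In 3d DM the order was *Jund* (1130), *Junb* (791), *Jun* (345), *Egr1* (146), *Myc* (81.8), *Fosl2* (81.0), *Atf3* (41.9), *Fos* (14.0), *Fosl1* (3.85) and *Fosb* (1.58), with overlaps between *Jund* and *Junb*, *Egr1* and *Myc*, *Myc* and *Fosl2*, and *Fosl1* and *Fosb*. *Jun* was thus above *Junb* per kilobase in both GM libraries (608 and 579 against 407 and 477), and below it in both 3d DM libraries (280 and 409 against 578 and 1000). The length was that of all annotated exons of a gene together, 2301 bases for *Junb* and 3189 for *Jun*. The transcripts used for the peaks have 1809 and 3189 bases. On the transcript lengths *Jun* is not above *Junb* in GM replicate 2, so the order of close neighbours depends on the length used. Among the 11012 tested genes with a length, the 3 Jun genes stood between the 90.1 and 97.7 percentiles of level per kilobase in the 2 states, while *Fos* stood at the 5.79 percentile in GM and the 14.2 percentile in 3d DM.

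The other genes of these pathways were read from lists around the 10, and 25 of the 92 list genes tested had an adjusted p under 0.05, or 27.2% beside 17.0% of all tested genes. Of these 25, limma still called 16 without GM replicate 1, 6 without GM replicate 2, 1 without 3d DM replicate 1 (*Ccnd1*) and 10 without 3d DM replicate 2, and it called *Maf* and *Ccn2* in addition without GM replicate 1 and GM replicate 2 respectively. With the replicate number as a block 20 of the 25 were called, and *Arc*, *Dusp6*, *Plau*, *Fbl* and *Nop58* were lost. Of 15 AP-1 relatives and partners, 11 were tested and limma called 0, with 3 at an unadjusted p under 0.05 (*Maf*, *Creb1* and *Mafk*), while after rescaling it called *Creb1* higher in GM (0.72, adjusted p = 0.0347 by limma) and *Mafk* lower in GM (-1.15, adjusted p = 0.0294 by limma). *Batf* and *Batf2* were listed at 0 in all 4 libraries, and *Batf3* in 2. In the Egr family, *Egr3* rose in 3d DM, with 25.0 and 54.2 in GM against 214.6 and 394.2 in 3d DM, a log2 difference of -2.95 (SE 0.51, adjusted p = 2.2e-07 by limma). *Egr2* did not pass (-0.53, adjusted p = 0.622 by limma), *Egr4* was listed at 0 throughout, and of the Nab corepressors that bind Egr proteins *Nab1* passed only after rescaling (0.94, adjusted p = 0.0163 by limma). The *Egr3* call held after rescaling (-3.17, adjusted p = 0.00792 by limma) and was lost without either 3d DM library.

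Within the Myc network, in which Mxd proteins compete with Myc for Max, 10 of 12 genes were tested. Of these 2 passed, in opposite directions, a share near the 17.0% of all tested genes. *Mxd1* had 85.4 and 40.2 in GM against 316.6 and 264.2 in 3d DM (log2 difference -2.28, SE 0.50, adjusted p = 6.6e-05 by limma). *Mxd3*, the Mxd gene known from dividing cells, had 227.2 and 155.6 in GM against 37.7 and 70.7 in 3d DM (1.84, SE 0.51, adjusted p = 0.00334 by limma). Both were also called after rescaling. The *Mxd3* call was lost without GM replicate 1, the *Mxd1* call without GM replicate 2, and both without either 3d DM library. *Max* itself did not pass (0.54, adjusted p = 0.501 by limma), nor did *Mycl*, and *Mycn* was below the filter. *Mlxipl* was listed at 0 in 2 libraries.

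Of the 24 other early response genes 23 were tested, 8 rose in GM and 1 in 3d DM, beside 9.96% and 7.01% of all tested genes, and the median log2 difference was 0.75 beside 0.22. The 8 were *Arc*, the MAP kinase phosphatases *Dusp4*, *Dusp5* and *Dusp6*, the nuclear receptor gene *Nr4a2*, the mRNA decay factor gene *Zfp36l2*, the kinase gene *Plk3* and the EGF receptor inhibitor gene *Errfi1*. *Dusp5* had 80.5 and 265.9 in GM against 20.6 and 28.9 in 3d DM (2.54, SE 0.55, adjusted p = 7.0e-05 by limma), and *Errfi1* had 1461.1 and 2194.7 against 242.8 and 440.0 (2.45, SE 0.43, adjusted p = 4.0e-07 by limma). *Zfp36l1*, a paralog of *Zfp36l2*, went the other way with 543.9 and 211.8 in GM against 1257.9 and 1799.1 in 3d DM (-2.14, SE 0.44, adjusted p = 1.5e-05 by limma). The rescaled values gave 6 calls in GM and 2 in 3d DM, without *Arc* and *Dusp6* and with *Gadd45b* added in 3d DM. Over all 11406 tested genes the rescaled calls were 1275 in GM and 1369 in 3d DM. *Nr4a3* was below the filter. Without 3d DM replicate 1 the count of calls in this list was 0, and without GM replicate 2 it was 2.

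Upstream of these factors, of 24 genes of the MAP kinase cascades and of SRF and its cofactors, all were tested. Of these 1 passed, beside 17.0% of all tested genes. That gene was *Elk3*, an ETS factor that binds with SRF. It had 1214.2 and 1122.9 in GM against 285.8 and 408.6 in 3d DM (1.77, SE 0.44, adjusted p = 0.00065 by limma), and its call was lost without GM replicate 1, without GM replicate 2 and without 3d DM replicate 1. *Srf* had 492.7 and 943.3 against 430.7 and 667.0 and did not pass (0.35, adjusted p = 0.703 by limma). After rescaling *Elk3* was called too (1.54, adjusted p = 0.00368 by limma).

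Of 11 well known AP-1 target genes, 8 were tested and 4 rose in GM, beside 9.96% of all tested genes. *Plaur*, the urokinase receptor gene, had 521.0 and 1153.0 in GM against 32.6 and 61.0 in 3d DM (4.09, SE 0.48, adjusted p = 1.0e-15 by limma). *Ccnd1*, the cyclin D1 gene, had 2394.6 and 4037.2 against 178.5 and 287.4 (3.77, SE 0.43, adjusted p = 2.2e-16 by limma). *Cd44*, a hyaluronan receptor gene (1.69, adjusted p = 0.00046 by limma), and *Plau*, the urokinase gene (1.26, adjusted p = 0.0254 by limma), were the others, and all 4 were also called after rescaling. *Hbegf*, *Hmox1*, *Timp1* and *Tnc* did not pass, and the matrix protease genes *Mmp3*, *Mmp9* and *Mmp13* were below the filter, *Mmp3* and *Mmp13* being listed at 0 in 2 libraries each. Without 3d DM replicate 1 only *Ccnd1* was called, and without GM replicate 1 *Ccnd1* and *Plaur* were.

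All 12 Myc target genes, which serve the nucleolus, nucleotide and polyamine synthesis and division, were tested and 8 rose in GM, beside 9.96% of all tested genes, with a median log2 difference of 1.43 beside 0.22. *Srm*, the spermidine synthase gene, had 528.4 and 1189.1 in GM against 165.6 and 260.7 in 3d DM (1.93, SE 0.45, adjusted p = 0.00025 by limma). *Nop56*, a nucleolar protein gene, had 1513.5 and 2898.2 against 491.1 and 820.3 (1.72, SE 0.43, adjusted p = 0.00064 by limma), and *Cad*, for pyrimidine synthesis, had 814.4 and 1721.0 against 275.9 and 461.4 (1.73, SE 0.44, adjusted p = 0.00091 by limma). *Npm1* was the fourth by size (1.58, adjusted p = 0.00108 by limma), *Cdk4*, *Ncl*, *Fbl* and *Nop58* also rose, and *Ldha*, *Nolc1*, *Odc1* and *Polr1b* did not pass. After rescaling 5 of 12 were called, and *Cad* (adjusted p = 0.0531 by limma), *Ncl* and *Nop58* were not. Of all 11406 tested genes 1275 were called higher in GM after rescaling. Without GM replicate 2 and without 3d DM replicate 1 the count was 0, and without 3d DM replicate 2 it was 1. Like *Myc*, 10 of the 12 had a higher signal in GM replicate 2 than in GM replicate 1, as did 32.5% of all tested genes.

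**Figure D3:**
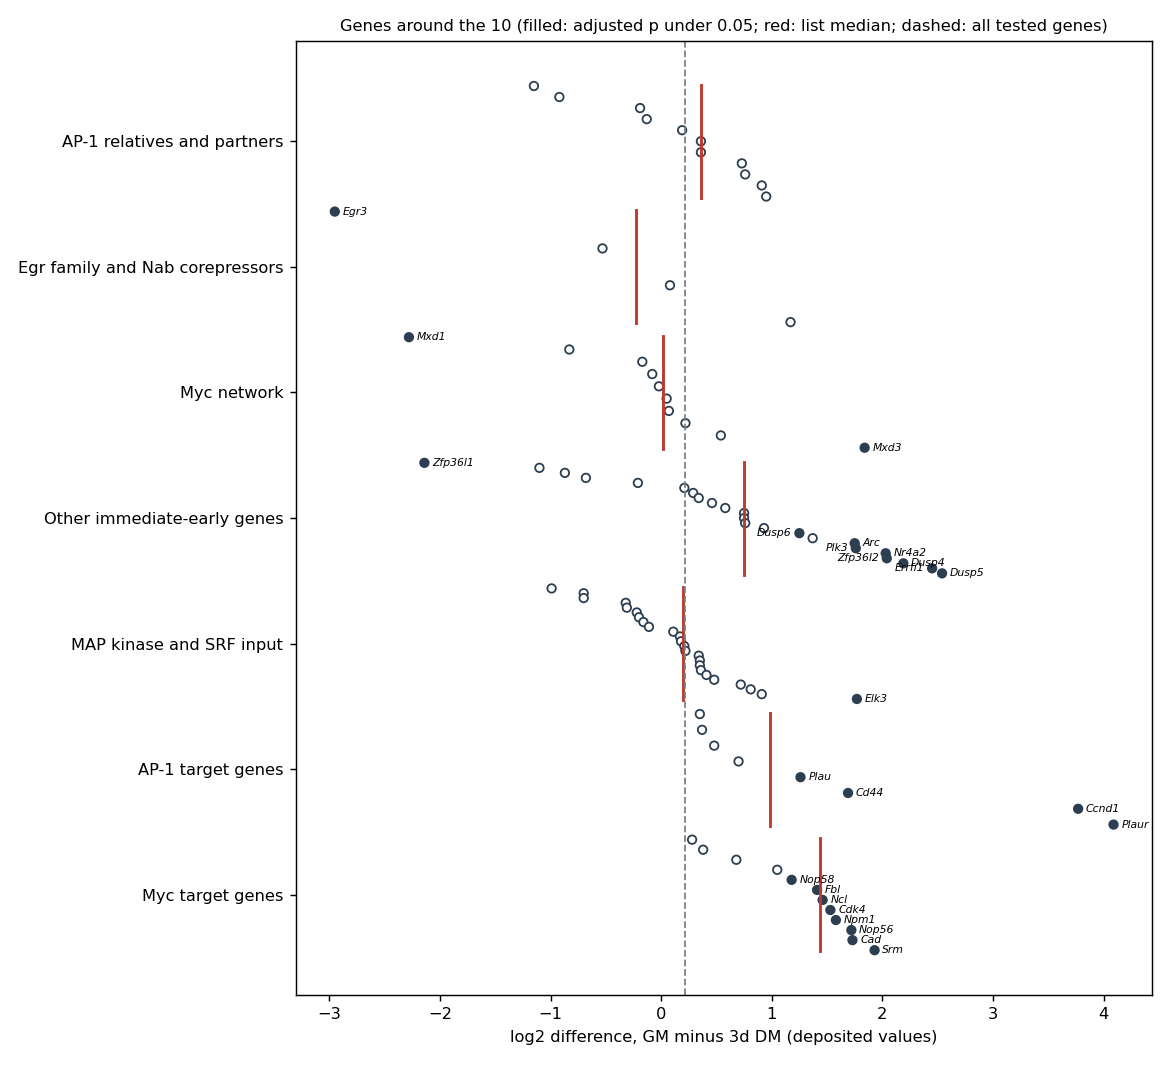
Log2 differences (GM minus 3d DM) in the deposited values for the tested genes of the 7 lists, 1 point a gene, filled and named where the adjusted p was under 0.05. Red bars are list medians and the dashed line is the median of all tested genes, 0.22. The medians of the AP-1 target genes (0.98) and the Myc target genes (1.43) stand to the right of that line.

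In MeRIP-seq, 8 of the 10 genes had a peak in each of the GM libraries, while the 3d DM libraries gave 9 for replicate 1 and 6 for replicate 2. The lists themselves named 7574 and 7164 genes in GM, and 7471 and 6294 in 3d DM, so that of 3d DM replicate 2 was the shortest. Shares of all tested genes are not given for these single-library counts or for a peak in at least 1 library. *Fosl2*, *Jun*, *Junb*, *Jund*, *Egr1* and *Myc* had a peak in all 4 libraries, as did 42.9% of the 11406 tested genes. Leaving out 3d DM replicate 2 added *Fosl1* and *Atf3* to these 6. *Fosb* had no peak, and the single peak on *Fos* was 60 bases long in the coding sequence and was listed in 3d DM replicate 1 alone. These 2 genes also had the lowest RNA signal per kilobase in GM, and the part of RNA level in the lack of peaks was not tested. A deposited peak line that touched both the coding sequence and the 3′ UTR was present in all 4 libraries for 5 of the 6 genes, the exception being *Junb*, and for 32.6% of the 4892 tested genes with a peak in all 4.

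The bases under a peak in all 4 libraries lay partly around the stop codon and partly well before it. They covered the stop codon in 5 of the 6 genes, and on *Junb* a common stretch began at base 11 after it. On *Jun* 505 of the 1344 common bases were in the 5′ UTR, 261 in the coding sequence and 578 in the 3′ UTR. *Junb* had 594 of its 980 common bases in the coding sequence and *Egr1* 955 of 1102, while *Fosl2* (396 of 752), *Jund* (414 of 626) and *Myc* (172 of 307) had more in the 3′ UTR than before it. To show what they hold, a 25-base window was read around a DRACH pentamer covered in all 4 libraries. This was done for each of the 6 genes except *Egr1*, whose sequence was not read. DRACH is the m6A consensus (in words, not C, then a purine, then A and C, then not G). GGACT was preferred, then any other pentamer starting with GGAC, and among equals the one nearest to the stop codon. The choice itself thus places these windows close to the stop codon. The pentamer is in capitals and the sequences are the mRNA strand in mm10, read 5′ to 3′. A match describes the letters and does not show that the adenosine was methylated.
Fosl2 (chr5:32153314-32153338, plus strand, 3′ UTR, A at base 137 after the stop codon): ccacccggtgGGACTtagtggtgag
Jun (chr4:95050127-95050151, minus strand, 3′ UTR, A at base 128): tacacaagatGGACTgggttgcgac
Junb (chr8:84977259-84977283, minus strand, 3′ UTR, A at base 124): ctcacacactGGACTccggcccgcc
Jund (chr8:70700097-70700121, plus strand, 3′ UTR, A at base 26): gcgcatgcgcGGACTagctgcggtg
Myc (chr15:61990030-61990054, plus strand, 3′ UTR, A at base 134): tggggctttgGGACTgtaagcttca

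Each of these 5 genes, among the 9 searched (*Egr1* was not searched), held GGACT within the first 150 bases after the stop codon, on the mRNA strand. *Fos*, *Fosb*, *Fosl1* and *Atf3* did not. Of 10084 tested genes with a 3′ UTR of that length, 19.3% held it there, 21.1% of those with a peak in all 4 libraries and 17.7% of the others, and 2.25% of all 25-base windows of their transcripts held it anywhere. The length of 150 bases was chosen after the positions were seen, so these shares are a description.

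A second set of windows shows stretches covered throughout GM and bare throughout 3d DM, chosen by the same order of preference. That order puts pentamers starting with GGAC first, so the GGACC windows of *Fosl1* and *Jun* follow from the choice. GGACC occurred in 2.36% of all 25-base windows of these transcripts, a share given as a description. For *Fosl1* the input RNA in 3d DM lay under the filter on low values.
Fosl1 (chr19:5455101-5455125, plus strand, coding sequence): cctttctccaGGACCcgtacttgaa
Jun (chr4:95051084-95051108, minus strand, coding sequence): ccaagaactcGGACCttctcacgtc
Atf3 (chr1:191170634-191170658, minus strand, 3′ UTR): aaagggtgtaGGACTccatactcag
Myc (chr15:61988174-61988198, plus strand, coding sequence): ctccttcctcGGACTcgctgctgtc

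On *Fosl1* the GM peaks were single stretches of 1258 and 1318 bases across the stop codon, where 3d DM replicate 1 had 3 short stretches with 333 bases in all and 3d DM replicate 2 had none. The input signal of *Fosl1* in 3d DM, 4.3 and 11.4, lay under the filter on low values. The part of this low level in the missing coverage was not tested. *Atf3* had 982 and 847 covered bases in GM, 275 in the first 3d DM library and 0 in the second. On *Myc* 1624 and 1313 bases were covered in GM and 888 and 307 in 3d DM, and the stretch of its coding sequence that holds the second *Myc* window was bare in 3d DM. On *Jun* the GM peaks ran from the 5′ UTR to the 3′ UTR as 1 stretch of 2385 and 2325 bases, while in 3d DM 1492 and 1701 bases were covered in 2 and 3 stretches with a gap in the coding sequence. *Junb* had 1691 and 1513 covered bases in GM and 1069 and 1485 in 3d DM. The 3 others overlapped between the states: 1321 and 1081 against 1111 and 752 for *Fosl2*, 835 and 924 against 745 and 983 for *Jund*, and 1441 and 1441 against 1742 and 1102 for *Egr1*.

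Both GM libraries thus had more covered bases than both 3d DM libraries for 3 of the 6 genes with a peak throughout, *Jun*, *Junb* and *Myc*, and for 28.7% of the 4989 genes with a peak in all 4 libraries. The reverse held for none of the 6 and for 6.96% of the 4989. The replicates differed more often than the states: both replicate 1 libraries had more covered bases than both replicate 2 libraries for 35.1% of the 4989 genes, among them *Fosl2*, and fewer for 6.19%, among them *Jund*. The count with GM above 3d DM was also 3 of the 6 among lines with a P of at most 1e-05 and among lines with a fold of at least 4. Covered length is set by how much was called in each library. The input RNA of *Jun* and *Myc* was higher in GM too, whereas that of *Junb* was lower. How far RNA level moved the covered length was not tested.

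**Figure D4:**
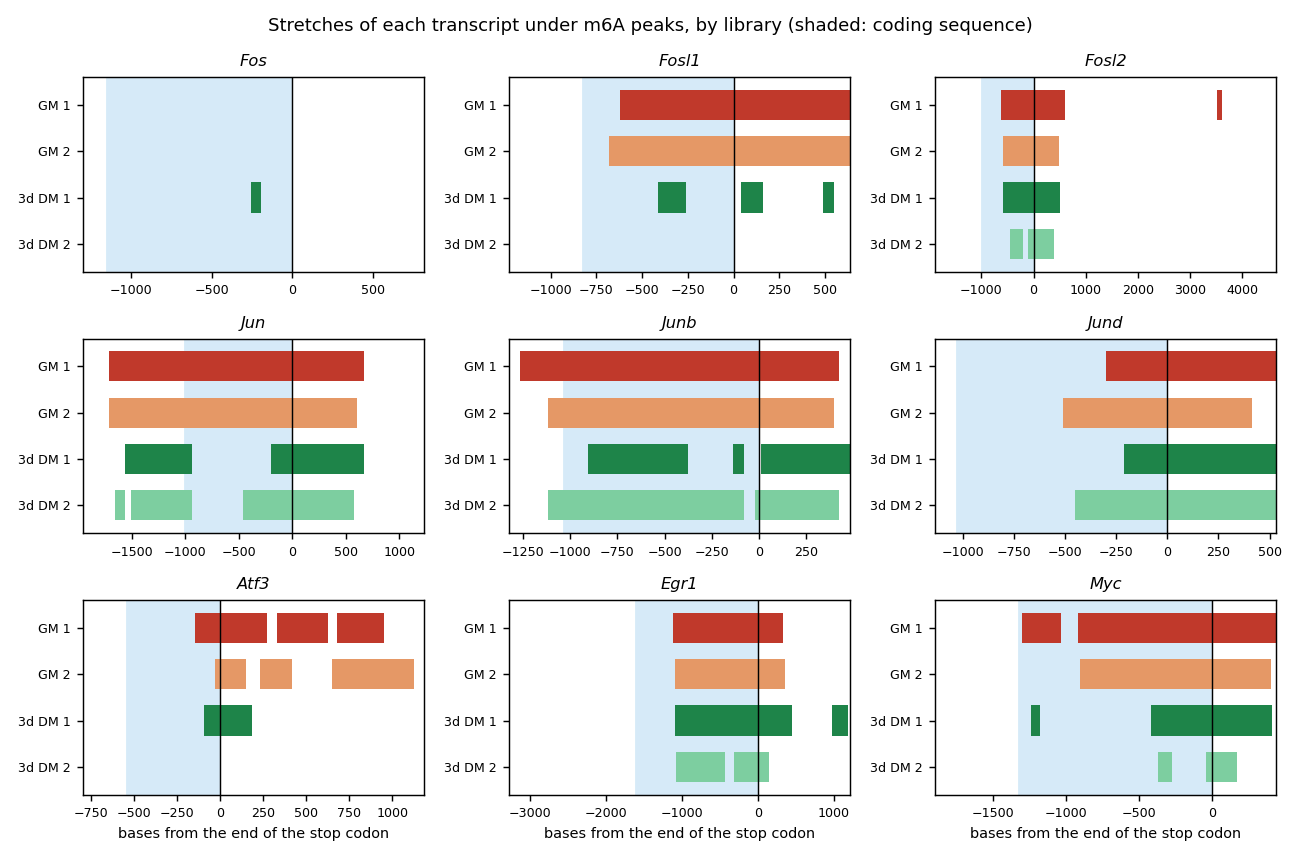
Stretches of the transcript of each of the 9 genes with a peak that lay under deposited peaks, by library, against the distance in bases from the end of the stop codon (black line). Each panel spans the whole transcript and the shaded part is the coding sequence. The GM rows of *Fosl1*, *Jun* and *Myc* are unbroken over stretches where the 3d DM rows are broken or empty. The input RNA of *Fosl1* in 3d DM lay under the filter on low values.

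The strength of the peaks was read as the fold of immunoprecipitated over input RNA, taken for each merged peak as the highest of its lines in a library, and tested with limma on log2 fold over the 6055 merged peaks present in all 4 libraries. For the *Myc* peak the fold was 18.7 and 17.2 in GM against 9.52 and 5.01 in 3d DM. These groups did not overlap, with a log2 difference of 1.38 (SE 0.61, unadjusted p = 0.0424, adjusted p = 0.996 by limma). For *Jun* the folds were 10.5 and 10.2 in GM against 8.32 and 9.89 in 3d DM, groups that did not overlap but lay close together (log2 difference 0.19, SE 0.56, adjusted p = 0.996 by limma). Both GM folds lay above both 3d DM folds for these 2 of the 6 genes and for 21.8% of all tested peaks.

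The other 4 peaks overlapped between the states. *Junb* had folds of 4.48 and 5.97 in GM against 18.0 and 4.65 in 3d DM, where the high value came from 3d DM replicate 1. The *Junb* peak was 1 line in each GM library, against 3 and 2 lines in 3d DM. For *Jun* it was 1 line in each GM library against 2 and 3. The highest fold was thus taken over unlike numbers of lines in these 2 genes. *Fosl2* had 13.5 and 8.54 against 9.49 and 6.4. *Jund* had 9.17 and 13.3 against 7.03 and 12.4, and *Egr1* had 5.51 and 6.93 against 5.97 and 5.65. Limma called 0 of the 6 and 0.00% of all 6055 peaks, where 1 of the 6 and 208 of all had an unadjusted p under 0.05. The 1 of the 6, *Myc*, was no longer under 0.05 with folds centred on each library's median. The same held with the median fold of the lines. The fold is relative to the input of the same sample, so it does not count modified molecules.

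**Figure D5:**
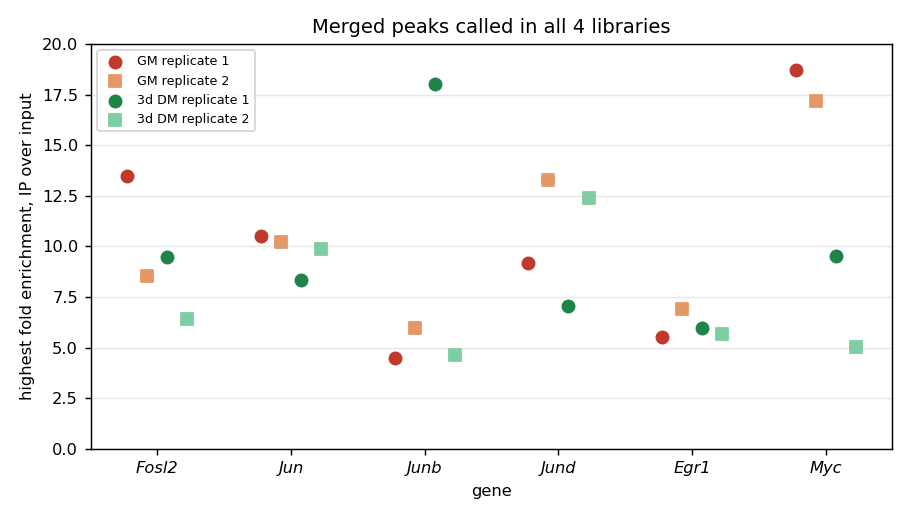
Highest fold enrichment of immunoprecipitated over input RNA in each library for the 6 genes with a merged peak in all 4 libraries. *Myc* stands at 18.7 and 17.2 in GM and at 9.52 and 5.01 in 3d DM, and *Junb* at 18.0 in 3d DM replicate 1 only.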

How the data were processed

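MeRIP-seq and RNA-seq of C2C12 cells comprised 4 input and 4 immunoprecipitated libraries, grouped by the labels, and all were used. The labels do not say whether replicates came from separate cultures, so the p-values rest on these libraries alone. For the deposited RNA values they use mostly a spread shared by genes of like level, not the spread of a gene's own replicates. Per the labels and methods, reads were trimmed, mapped by HISAT2 (v2.1.0) on the mm10 build and handled with edgeR or, for peaks, exomePeak run for each sample. The authors deposited 1 table of normalized signal, labelled TMM. Its low values are not whole (1.3% within 0.01 of a whole number), so reads were not recovered and the depth is unknown. The deposited peak lists give a p-value and a fold, a ratio of immunoprecipitated over input RNA, for each line.

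Entrez identifiers were matched to symbols for 98.7% of tested genes. Because the table holds no counts, limma 3.58.1 (R 4.3.3) with an intensity trend was fitted to log2(value + 1) over all genes passing the filter. It was also fitted to log2 fold over merged peaks (lines of 1 gene and strand sharing at least 1 bp). Both fits used Benjamini-Hochberg adjustment at 0.05. Both were run on simulated data with the same spread throughout and independent libraries, which does not check them on data like these. With 2 against 2 libraries an exact permutation test cannot go under 0.33. Exon lengths, transcripts and positions came from GENCODE M21, and sequences from the GRCm38 genome (mm10). Peak starts were read as 0-based, which 100% of 107872 inner block starts fitted to exon starts. Python 3.11.15 and matplotlib 3.10.9 were used. Alternatives were other filters, pseudocounts of 0.1 and 4, no trend, 2 rescalings, the replicate block, stricter peak lines, merging from 100 bp, median or centred folds, and each replicate left out. The covered length under stricter lines was added after seeing the data.

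The 10 genes and the lists were chosen with earlier results of these data known. Named from each list were up to 4 called genes of largest change and any gene listed at 0 in a library, with all markers. Further genes were named after their values were seen. Some rescaled results of the MAP kinase list are not reported here.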

Additional observations from a re-analysis of the deposited data

How the results depend on the processing

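The number of the 10 genes called in RNA-seq was 2 and fell to 1 with the filter of 3 libraries, which leaves *Fosl1* untested. It was 2 under both rescalings, where *Junb* took the place of *Myc*. Leaving out 1 library gave 0 to 2. Over the lists 25 genes were called, and 1 to 17 with a library left out. Over all tested genes 1936 were called, 1136 higher in GM and 800 in 3d DM, against 1275 and 1369 after median-of-ratios rescaling and 145 to 1252 in total with a library left out. Same-numbered libraries deviated together (correlation 0.29 between the states), but nothing in the labels pairs them. With the replicate block 1 of the 10 genes was called, *Myc* being lost (1.43, adjusted p = 0.0911 by limma), and 1298 of all genes. Trimmed-mean rescaling gave -0.22 for *Fosl2* and -0.03 for *Egr1*, the same signs as median-of-ratios rescaling (-0.22 and -0.03). With a library left out *Fosl2* ranged from -0.28 to 0.31 (-0.04 without GM replicate 1) and *Egr1* from -0.58 to 0.97 (-0.07 without GM replicate 1). The cause of these reversals was not tested. The 6 genes with a peak in all 4 libraries became 8 without 3d DM replicate 2, whose list named the fewest genes. They were 6 under every other alternative run. None of their peaks was called for a change of fold in any alternative run on all 4 libraries. The same held for every one of the 2498 to 6055 peaks tested there, so this says nothing particular to the 6. The unknown depth limits what can be said of *Fos*, *Fosb* and, in 3d DM, *Fosl1*.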

Other observations

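Replicate 2 stood above replicate 1 for most of the 10 genes in both states. In 3d DM all 10 had a higher deposited signal in replicate 2, as did 93.7% of tested genes. In GM 6 of the 10 did in the deposited values, beside 32.5% of tested genes. After median-of-ratios rescaling the share over all tested genes was 50.8% in 3d DM and 51.6% in GM, while 9 of the 10 genes were higher in replicate 2 in 3d DM and 8 of 10 in GM. The exceptions were *Fos* in 3d DM (0.942-fold) and *Jund* (0.762-fold) and *Egr1* (0.816-fold) in GM. The widest rescaled ratios of replicate 2 over replicate 1 were 4.31 for *Fosl1*, 3.63 for *Fosb* and 3.14 for *Myc* in GM, and 2.39 for *Fosb*, 2.06 for *Egr1*, 1.87 for *Fosl1* and 1.79 for *Atf3* in 3d DM. Of the 23 other early response genes tested, 21 in GM and 19 in 3d DM were higher in replicate 2 after rescaling. Of the 12 Myc target genes it was 12 in GM and 8 in 3d DM. Replicates have no order, and these ratios were not tested.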
